A study of Homo sapiens with 6 samples.

Results

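JAK1, JAK2, JAK3, TYK2, STAT2, STAT3, STAT5A, STAT5B and STAT6 are 9 genes of the JAK kinase and STAT transcription factor families, and they were taken by their gene symbols and Entrez gene IDs from tables that list 27259 genes. Each of the 9 genes had a line in all 6 libraries. The libraries came from U87MG, an established human glioblastoma cell line, and the total RNA of whole cultures was sequenced. The 3 U87MG-control libraries came from cells given a control lentivirus, and the 3 U87MG-LMO2 libraries from cells given a lentivirus that carries LMO2, a LIM-only adaptor protein of transcription complexes, both for 24 h. Per the study's methods, LMO2 was cloned in a vector with the CMV promoter. The share of cells that took up either virus was not given in the sources used here, and no label says that replicates came from separate cultures, so p-values measure the spread between these libraries, which may be technical. The study asked whether LMO2 acts on STAT3 signalling, and the comparison described here is that of the mRNA levels of the kinases and STAT factors themselves.

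JAK kinases are tyrosine kinases bound to the inner part of cytokine receptors that have no kinase of their own. A bound cytokine brings the receptor chains and their JAKs together, the JAKs phosphorylate the receptor and the docked STAT proteins, and the paired STATs move to the nucleus and bind DNA. In glioblastoma the pathway is best known for STAT3, which is activated by phosphorylation, a step that RNA sequencing does not measure.

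The libraries held 11428432 to 17892955 expected counts, and U87MG-control replicate 1 was the shallowest and U87MG-LMO2 replicate 3 the deepest. LMO2 itself had 5 to 11 expected counts in the control libraries and 4503 to 14570 in the U87MG-LMO2 libraries, and it was highest in replicate 3. The glioma-associated genes VIM, CD44 and EGFR were read at 51.3 FPKM or more in all 6 libraries, NES lay at 6.64 to 8.71 FPKM and CHI3L1 at 46.5 to 215.9 FPKM, and OLIG2, at 0.16 to 0.42 FPKM, and SOX2, at or under 0.090 FPKM, were near 0. GFAP was not analysed here. The 6 leukocyte markers that the files list summed to 0.49 to 0.80 FPKM in U87MG-control and to 1.07 to 1.53 FPKM in U87MG-LMO2. Of these, PTPRC, the pan-leukocyte marker CD45, was at 0.24 to 0.38 FPKM in all libraries, and CD3E and IL2RG were at or under 0.06 FPKM. CD14 was at 0.05 to 0.19 FPKM in U87MG-control and 0.17 to 0.30 FPKM in U87MG-LMO2. SPI1 was at 0.08 to 0.21 FPKM and 0.15 to 0.43 FPKM, and neither passed the filter on low counts. ITGB2 was at 0 to 0.09 FPKM in the control libraries and at 0.25 to 0.48 FPKM in the U87MG-LMO2 libraries, and since it passed the filter on low counts through the latter group, its test is not used. The endothelial markers summed to 1.62 to 2.20 FPKM over all libraries. The neuronal markers summed to 12.6 to 16.2 FPKM, nearly all of it SNAP25 (12.05 to 15.6 FPKM), while RBFOX3, SYT1 and GRIN1 were at or under 0.45 FPKM. In neither list was a gene called. The part of these marker levels, of the depth and of the LMO2 level in any result below was not tested. Because whole cultures were sequenced, fewer cells that express a gene and less RNA of it per cell cannot be told apart.

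Levels are given as FPKM, read fragments scaled to transcript length and to the mapped fragments of the library, which can be compared between genes. By the mean FPKM of the 6 libraries the order was TYK2, STAT6, STAT2, JAK1, STAT3, STAT5B, STAT5A, JAK2 and JAK3. TYK2, the kinase of the type I interferon and IL-12 family receptors, had a mean of 52.6 FPKM, above 91.0% of the genes tested. JAK3, the kinase that pairs with the common gamma chain of lymphocyte cytokine receptors, had 0.805 FPKM, above 14.0% of them. JAK2, the kinase of the erythropoietin, growth hormone and prolactin receptors, stood near that lower end with 1.77 FPKM, above 26.2%. Of the 4 JAK genes, TYK2 and JAK1 thus held nearly all of the summed FPKM. Of the 5 STAT genes among the 9, STAT6, STAT2 and STAT3 held most of theirs, with 42.9, 37.4 and 27.8 FPKM.

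Neighbours in this order were compared within each library by an exact paired sign-flip permutation test (2-sided, 8 pairs, n = 6 libraries). With 6 libraries the smallest p that this test can give is 0.03125, and 6 of the 8 pairs reached it, with a Benjamini-Hochberg adjusted p of 0.0417. In these 6 pairs the upper gene was higher in 6 of 6 libraries. The order came from the same libraries, so these p-values say only how alike the order was among them. Steps are given as the geometric mean of the ratios within the 6 libraries. The widest step was from STAT5B to STAT5A, at 5.22 times, followed by that from STAT3 to STAT5B at 2.29 times and that from JAK2 to JAK3 at 2.18 times. STAT2 and JAK1 were not separated (37.4 and 33.7 FPKM, STAT2 higher in 5 of 6 libraries, exact permutation p = 0.25). STAT5A and JAK2 were not separated either (2.39 and 1.77 FPKM, STAT5A higher in 5 of 6 libraries, exact permutation p = 0.281). U87MG-control replicate 1 was the library in which JAK2 stood above STAT5A. In U87MG-LMO2 replicate 2, JAK1 stood above both STAT6 and STAT2.

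**Figure D1:**
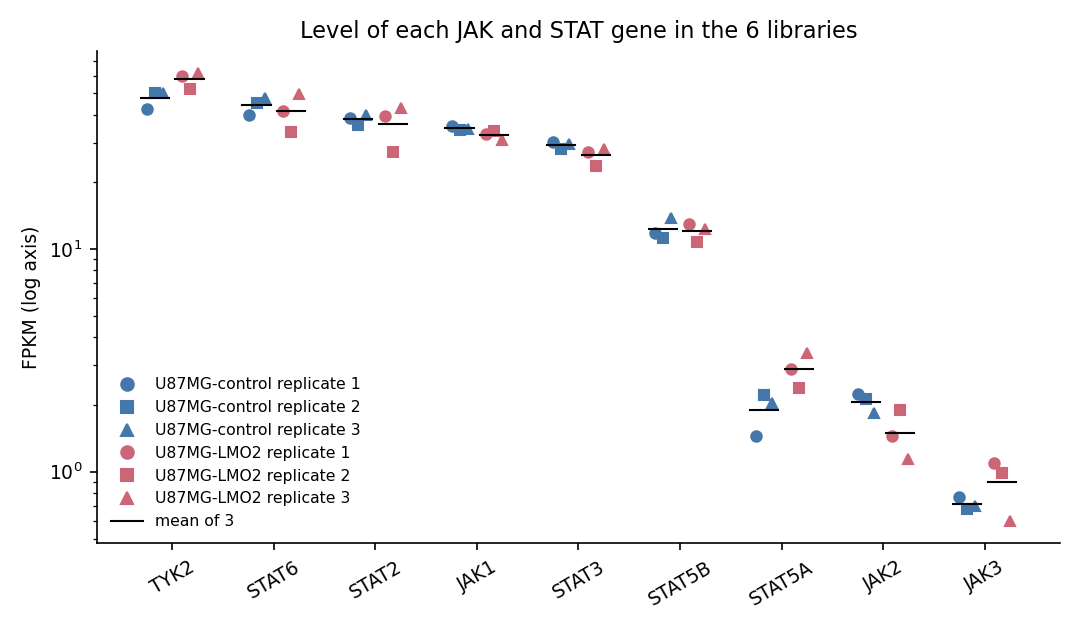
FPKM on a log axis of the 9 genes in the 3 U87MG-control libraries (blue) and the 3 U87MG-LMO2 libraries (red), ordered by the mean of all 6, with symbols for the replicates and lines for the group means. The genes span from 0.600 FPKM for JAK3 to 61.6 FPKM for TYK2, and the groups lie close together within each gene.

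With the levels set out, the groups were compared gene by gene with edgeR on the expected counts, over all 16092 genes that passed the filter on low counts, and all 9 genes passed it. At an adjusted p under 0.05, 7.48% of the tested genes were called (760 higher and 443 lower in U87MG-LMO2), and 0 of the 9 JAK and STAT genes were. At an unadjusted p under 0.05 there were 3 of the 9, STAT5A, TYK2 and JAK2, against 25.7% of all genes. DESeq2 gave 2 of the 9 at that unadjusted threshold, as did limma on log2(FPKM + 1). The share of all genes is not given for these 2 methods. Their counts therefore cannot be read as many or few. The median log2 fold change was 0.016 over the 9 genes and -0.011 over all tested genes, and the median size of the change without its sign was 0.109 and 0.235. The 95% interval of the fold lay within 1.5 times in either direction for 6 of the 9 genes.

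**Figure D2:**
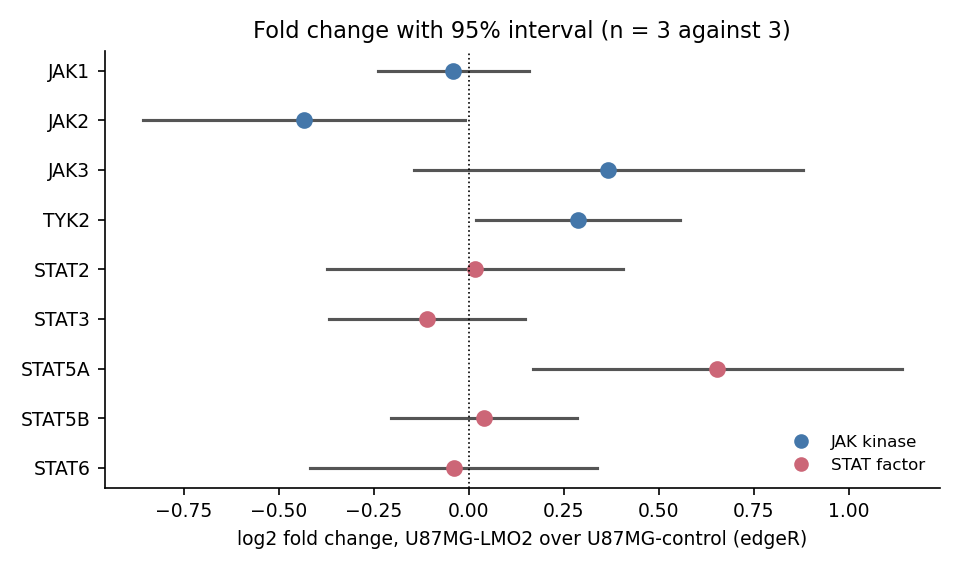
Log2 fold change of U87MG-LMO2 over U87MG-control for the 9 genes (points, JAK kinases blue and STAT factors red) with the 95% interval from edgeR (bars), n = 3 against 3. STAT5A at 0.65, TYK2 at 0.29 and JAK2 at -0.43 have intervals that leave out 0, before any adjustment over genes.

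Among the kinases, JAK1, which serves the interferon, gp130 and common gamma chain receptors, was the steadiest of the 9 genes. Its level was 35.6, 34.0 and 34.7 FPKM in U87MG-control replicates 1 to 3 and 32.9, 33.9 and 31.0 FPKM in U87MG-LMO2 replicates 1 to 3. Every U87MG-LMO2 value lay below every control value on the FPKM scale, by a small margin. On the scale of CPM, counts scaled to the TMM-adjusted library size with no correction for length, the groups overlapped, with 169.2 to 177.4 and 163.5 to 170.5 CPM. The 2 scales differ in library size as well as in length, and the length given for JAK1 varied by a ratio of only 1.016. U87MG-LMO2 replicates 2 and 3 had 170.2 and 170.5 CPM but 33.9 and 31.0 FPKM. The log2 fold change was -0.04 ± 0.087 (SE), with a 95% interval of -0.24 to 0.16 (edgeR adjusted p = 0.796). The interval of the fold, 0.847 to 1.11, bounds the difference in JAK1 more narrowly than that of any other of the 9 genes.

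JAK2 was low and more scattered. It had 2.23, 2.11 and 1.83 FPKM in U87MG-control and 1.45, 1.88 and 1.14 FPKM in U87MG-LMO2. The groups overlapped, since U87MG-LMO2 replicate 2 lay above U87MG-control replicate 3. These values rest on 109 to 153 expected counts a library, for which counting error alone gives a coefficient of variation of 8.48% in U87MG-control and 8.87% in U87MG-LMO2, while the observed ones on CPM were 9.97% and 21.9%. The fold was 0.741 with a 95% interval of 0.552 to 0.994 (edgeR adjusted p = 0.186). The log2 fold change was -0.62 without U87MG-LMO2 replicate 2, where the adjusted p was lowest, 0.0733, and -0.31 without replicate 3.

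JAK3 was the lowest of the 9 genes. It had 0.77, 0.68 and 0.70 FPKM in U87MG-control and 1.09, 0.99 and 0.60 FPKM in U87MG-LMO2. U87MG-LMO2 replicates 1 and 2 were above all control libraries and replicate 3 was below them. The log2 fold change was 0.37 ± 0.225 (SE), with a 95% interval of -0.14 to 0.88 (edgeR adjusted p = 0.340). Without U87MG-LMO2 replicate 3 it was 0.56, with an adjusted p of 0.0654. IL2RG, the common gamma chain with which JAK3 works, was listed at 0 in 5 of the 6 libraries and at 0.060 FPKM in U87MG-control replicate 1.

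TYK2 was the most abundant kinase and the only one whose groups were apart on both scales. Its level was 42.6, 50.1 and 50.1 FPKM in U87MG-control and 59.5, 52.0 and 61.6 FPKM in U87MG-LMO2. The groups did not overlap on FPKM, and neither did they on CPM (173.5 to 194.0 and 201.8 to 261.0). Such a gap is common here, since 33.0% of all tested genes did not overlap on FPKM and 34.1% on CPM. The fold was 1.22 with a 95% interval of 1.01 to 1.47, and it did not pass after adjustment (edgeR adjusted p = 0.17, and 0.103 at the lowest, without U87MG-LMO2 replicate 2). Without U87MG-LMO2 replicate 3 the log2 fold change was 0.18 in place of 0.29. The gene length that the files give for TYK2, which sets its FPKM and follows the mix of transcripts estimated, ranged from 3743 to 4064 bases between libraries, a ratio of 1.09.

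As shares of the summed FPKM of the 4 JAK genes, TYK2 took 52.5% to 57.6% in U87MG-control and 58.6% to 65.3% in U87MG-LMO2. JAK1 took 39.2% to 43.9% and 32.8% to 38.2%. JAK2 and JAK3 together made up the small remainder. The shares of TYK2 and JAK1 did not overlap between the groups, and those of JAK2 and JAK3 did. On FPKM itself, 33.0% of all tested genes did not overlap, and no such figure is given for shares. With so small a remainder, a higher share of TYK2 leaves a lower share for JAK1, so these are not separate results. The sum of the 4 genes was 81.2 to 87.3 FPKM in U87MG-control and 88.8 to 94.9 FPKM in U87MG-LMO2. The ratio of TYK2 to JAK1 was 1.37 ± 0.152 (SD, n = 3) in U87MG-control and 1.78 ± 0.230 (SD, n = 3) in U87MG-LMO2, with an exact permutation p of 0.1, which is the smallest that 3 against 3 libraries can give. This ratio was chosen after its values were seen, as were 2 others that were computed with it, and its p adjusted over the 3 ratios was 0.15. For JAK2 over JAK1, which with TYK2 are the kinases of the gp130 receptor, the exact permutation p was 0.2 (0.0591 ± 0.0055 and 0.0455 ± 0.00938, SD, n = 3).

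**Figure D3:**
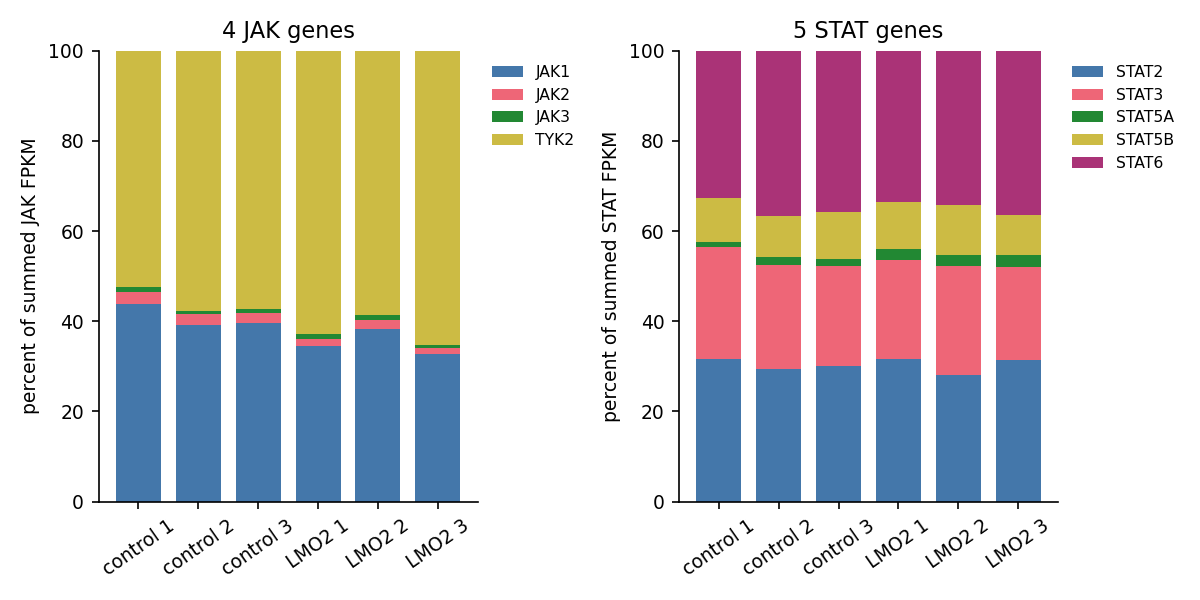
Share of each gene in the summed FPKM of the 4 JAK genes (left) and of the 5 STAT genes (right), in percent, 1 bar per library. TYK2 takes 52.5% to 57.6% of the JAK sum in the control libraries and 58.6% to 65.3% in the U87MG-LMO2 libraries, and STAT5A reaches at most 2.49% of the STAT sum in all of them.

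Among the STAT factors, STAT3, which acts downstream of gp130 and is the factor the study turns on, had 30.2, 28.2 and 29.5 FPKM in U87MG-control and 27.3, 23.5 and 28.0 FPKM in U87MG-LMO2. All U87MG-LMO2 values lay below all control values on FPKM. On CPM they did not, since U87MG-LMO2 replicate 3, with 152.2 CPM, was above all control libraries (140.0 to 150.3). That library had 28.0 FPKM at 152.2 CPM, while U87MG-control replicate 1 had 30.2 FPKM at 150.3 CPM. The length given for STAT3 varied by a ratio of only 1.001, and the 2 scales also use different library sizes. The lower FPKM of STAT3 in every U87MG-LMO2 library thus depends on the scaling of replicate 3. On FPKM, 4 of the 9 genes did not overlap between the groups (JAK1 and STAT3 lower, TYK2 and STAT5A higher in U87MG-LMO2), against 33.0% of all tested genes. On CPM there were 2 of the 9, TYK2 and STAT5A, against 34.1%. For STAT3 the log2 fold change was -0.11 ± 0.113 (SE), and its fold of 0.927 had a 95% interval of 0.775 to 1.11 (edgeR adjusted p = 0.582). A change of STAT3 mRNA by 1.5 times in either direction thus lay outside the interval.

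STAT2, which works with IRF9 in type I interferon signalling, had 38.7, 36.1 and 39.8 FPKM in U87MG-control and 39.4, 27.3 and 42.8 FPKM in U87MG-LMO2. STAT6, the factor of IL-4 and IL-13 signalling, had 39.9, 45.1 and 47.6 FPKM in U87MG-control and 41.7, 33.4 and 49.5 FPKM in U87MG-LMO2. For both genes U87MG-LMO2 replicate 2 was the lowest of the 6 libraries and replicate 3 the highest, so the U87MG-LMO2 values enclosed all control values. The coefficient of variation on CPM was 25.4% for STAT2 and 24.0% for STAT6 within U87MG-LMO2, against 4.47% and 8.57% within U87MG-control, while counting error alone gives 2.22% and 1.92% in U87MG-LMO2. The log2 fold change was 0.02 for STAT2 (95% interval -0.37 to 0.41, edgeR adjusted p = 0.962) and -0.04 for STAT6 (-0.42 to 0.34, adjusted p = 0.90). The sign of either value turned when certain single libraries were dropped, and neither gene passed in any such fit.

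**Figure D4:**
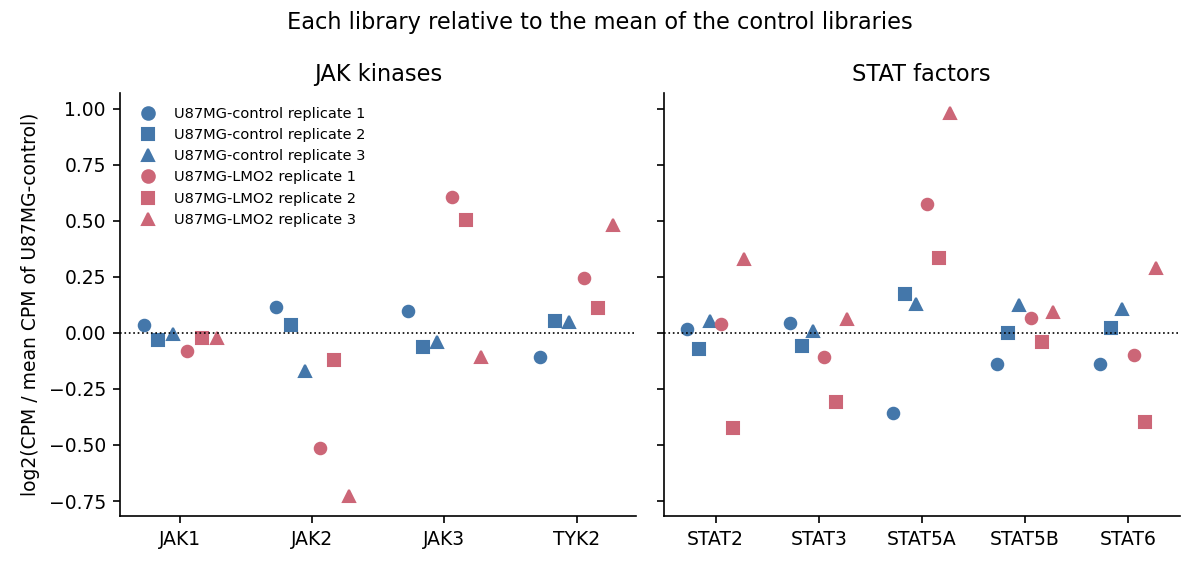
Log2 of the CPM of each library over the mean CPM of the 3 U87MG-control libraries (dotted line at 0), for the 4 JAK genes (left) and the 5 STAT genes (right), with symbols for the replicates. The U87MG-LMO2 libraries lie apart from each other for STAT2, STAT6, STAT5A, JAK2 and JAK3. Among them, replicate 3 is the highest for the 5 STAT genes, TYK2 and JAK1, by little for STAT5B and JAK1. It is the lowest for JAK2 and JAK3.

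STAT5A and STAT5B, which act downstream of the prolactin, growth hormone and IL-2 family receptors, are neighbours on chromosome 17 with nearly the same coding sequence. In GENCODE v29 on GRCh38, STAT5B lies at chr17:42199168-42276707 on the minus strand and STAT5A at chr17:42287547-42311943 on the plus strand, and STAT3 follows at chr17:42313324-42388568 on the minus strand. The coding sequences of STAT5A and STAT5B were identical at 89.0% of the aligned bases, against 57.1% to 66.5% for the other pairs within either family. A read that falls wholly within a shared stretch cannot be given to 1 of the 2 genes, and an expected count then divides it by estimate. Of the windows of 100 bases in the STAT5A transcript, 8.83% occurred unchanged in that of STAT5B, and of those in the STAT5B transcript 7.41% occurred in STAT5A. For the other 7 genes no window of 100 bases was found in another gene's transcript. The read length is not given in the sources used here, and with windows of 50 bases the shares were 11.9% for STAT5A, 10.0% for STAT5B, 1.52% for JAK3, 1.34% for STAT3 and 0 for the other 5 genes. The longest identical coding run was 429 bases, from coding base 564 to 992. It is shown here by 1 whole exon within it, exon 8 of STAT5A (chr17:42300130-42300281, plus strand) and exon 7 of STAT5B (chr17:42219312-42219463, minus strand), 152 bases with no difference:
STAT5A exon 8 and STAT5B exon 7: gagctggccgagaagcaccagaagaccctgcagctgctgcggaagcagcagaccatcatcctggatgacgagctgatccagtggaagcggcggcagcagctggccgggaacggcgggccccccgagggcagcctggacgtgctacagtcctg

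The run ends at A993G (STAT5A base, position counted from 1 at the first coding base, STAT5B base). The 60 coding bases from 973 to 1032 show how little separates the genes there, with the base that differs in capitals:
STAT5A: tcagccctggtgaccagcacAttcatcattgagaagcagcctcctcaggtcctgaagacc
STAT5B: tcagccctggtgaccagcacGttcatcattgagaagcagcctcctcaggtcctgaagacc

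STAT5A showed the largest log2 fold change of the 9 genes. It had 1.44, 2.20 and 2.04 FPKM in U87MG-control and 2.90, 2.37 and 3.39 FPKM in U87MG-LMO2. The groups did not overlap on FPKM or on CPM (6.16 to 8.91 and 9.95 to 15.6), with U87MG-control replicate 1 the lowest library and U87MG-LMO2 replicate 3 the highest. The values rest on 70.5 to 121.9 expected counts in the control libraries and on 146.1 to 258.9 in the U87MG-LMO2 libraries. The log2 fold change was 0.65 ± 0.214 (SE) with a 95% interval of 0.17 to 1.14, a fold of 1.57, and it did not pass after adjustment (edgeR adjusted p = 0.0983). The adjusted p was lowest with DESeq2, at 0.0585. In the fits that left out a library the log2 fold change ranged from 0.45, without U87MG-LMO2 replicate 3, to 0.79, without U87MG-LMO2 replicate 2.

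STAT5B was nearly level between the groups. It had 11.8, 11.2 and 13.8 FPKM in U87MG-control and 13.0, 10.8 and 12.3 FPKM in U87MG-LMO2. The log2 fold change was 0.04 ± 0.107 (SE), with a 95% interval of -0.20 to 0.28 (edgeR adjusted p = 0.844). The length that the files give for STAT5B varied the most of the 9 genes, from 3631 to 4236 bases, a ratio of 1.17. When the counts of STAT5A and STAT5B were summed, the division of shared reads no longer mattered. The log2 fold change of the sum was 0.15 (95% interval -0.11 to 0.41, edgeR adjusted p = 0.457). The sum mostly follows STAT5B, with 606.8 mean counts in U87MG-control against 102.0 for STAT5A. It therefore cannot show whether STAT5A alone changed. The ratio of STAT5A to STAT5B was 0.156 ± 0.0382 (SD, n = 3) in U87MG-control and 0.240 ± 0.0316 (SD, n = 3) in U87MG-LMO2, with an exact permutation p of 0.1, the smallest that this design allows, and 0.15 after adjustment over the 3 ratios. As a share of the summed FPKM of the 5 STAT genes, STAT5A took 1.18% to 1.79% in U87MG-control and 2.33% to 2.49% in U87MG-LMO2. The ranges of the other 4 STAT shares overlapped. On FPKM itself, 33.0% of all tested genes did not overlap between the groups.

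STAT5A also had the widest range over the 6 libraries, 1.32 on the log2 CPM scale, where JAK1 had 0.12. The 3 genes whose pattern over the 6 libraries was most like that of STAT5A, among 9656 genes compared, were LOC101927910, IER5L and HCN2, with root mean square differences of 0.044, 0.058 and 0.058 in log2 CPM after centring. Like STAT5A, all 3 were lowest in U87MG-control replicate 1 and highest in U87MG-LMO2 replicate 3 (6.59 and 16.03, 32.3 and 82.4, and 85.4 and 204.4 CPM). This follows from how they were chosen and is no separate result. U87MG-control replicate 1 was also the lowest of the 3 control libraries in CPM for TYK2, STAT5B and STAT6, and the highest of them for JAK1, JAK2, JAK3 and STAT3.

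Some of the 9 genes overlap protein-coding genes on the opposite strand in GENCODE v29, and whether the reads were counted by strand is not given in the sources used here. JAK1 (chr1:64833229-64966504) overlaps RAVER2, JAK2 (chr9:4984390-5128183) overlaps INSL6, and STAT6 (chr12:57095408-57132139) overlaps NAB2 and LRP1. Without strand, reads from the shared stretches of these genes cannot be told apart. TYK2 (chr19:10350529-10380676), JAK3 (chr19:17824780-17848071), STAT3 and STAT5A overlap no other annotated gene.

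STAT4, a factor of IL-12 signalling in lymphocytes that is not among the 9, had 0.230 to 0.390 FPKM over all libraries.

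The genes around the 9 were followed in 7 lists (receptors, inhibitors, partners, targets of STAT3, STAT5, STAT2 with IRF9, and STAT6), which hold 139 genes, 108 of them tested. Of these, 14 were called (7 higher and 7 lower), or 13.0%, against 7.48% of all tested genes, and the median log2 fold change of the 108 was -0.065, against -0.011 over all tested genes. The counts of single lists below stand beside the same 7.48% and were not tested against it. HGF and TGM2 were called in all 6 fits that left out a library, and the other 12 in 1 to 3 of the 6. Of the alternatives with all libraries, LIFR, USP18, PIM1 and IFI44 were called in 4 of 7 and POSTN in 2 of the 5 that tested it. POSTN is among the 14, but its test is not used, as given below.

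Of 27 tested receptors that work through JAKs, 0 rose and 3 fell (11.1%, against 7.48% of all tested genes), with a median log2 fold change of -0.15. IL6ST, the gp130 chain that JAK1, JAK2 and TYK2 bind, fell by 0.73 on the log2 scale (34.8 ± 5.55 to 19.3 ± 2.88 FPKM, SD, n = 3, edgeR adjusted p = 0.0207). LIFR, the LIF receptor chain that pairs with it, fell by 0.59 (2.53 ± 0.427 to 1.62 ± 0.0153 FPKM, adjusted p = 0.0443). IL15RA, the alpha chain of the IL-15 receptor, fell by 1.12 (4.197 ± 0.895 to 1.92 ± 0.410 FPKM, adjusted p = 0.0229). The kinases of gp130, JAK1, JAK2 and TYK2, had the values given above and were not called.

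Of 18 tested inhibitors of the pathway, 2 rose and 0 fell (11.1%, against 7.48%), with a median of -0.033. SOCS3, which binds gp130 and blocks its JAKs, rose from 17.1 ± 0.653 to 29.5 ± 3.86 FPKM (SD, n = 3, log2 fold change 0.84, edgeR adjusted p = 0.0130). USP18, which cleaves ISG15 from proteins and holds back interferon receptor signalling, rose from 1.33 ± 0.336 to 2.65 ± 0.738 FPKM (log2 fold change 1.03, adjusted p = 0.0471). SOCS1, a direct inhibitor of JAK1, JAK2 and TYK2, had a log2 fold change of 0.074 (adjusted p = 0.915). CISH, a feedback inhibitor and target of STAT5, had 0.26 (adjusted p = 0.701). Of 13 tested partners and adaptors 0 were called, with 1 of them, IRF9, at 0.16 (adjusted p = 0.600).

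Of 22 tested STAT3 target genes, 4 rose and 1 fell (22.7%, against 7.48% of all tested genes), with a median log2 fold change of 0.31. Besides SOCS3, those that rose were PIM1, a serine kinase, MMP2, a matrix protease, and TWIST1, a mesenchymal transcription factor, at 0.77, 0.62 and 0.74 (adjusted p = 0.0346, 0.0285 and 0.0188). HGF, a growth factor, fell by 2.09 on the log2 scale, from 9.63 ± 1.93 to 2.41 ± 0.355 FPKM (adjusted p = 0.00273). PIM1 was the 1 gene called of 8 tested STAT5 target genes (12.5%, against 7.48%), whose median was 0.16.

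Of 23 tested target genes of STAT2 with IRF9, 1 rose and 3 fell (17.4%, against 7.48% of all tested genes), with a median of -0.37. The 1 that rose was USP18, an inhibitor, and those that fell were OAS1, the oligoadenylate synthetase, at -1.95, IFI44L at -0.66 and IFI44 at -0.56 (adjusted p = 0.0184, 0.0368 and 0.0473). Of 8 tested STAT6 target genes, 2 rose and 0 fell (25.0%, against 7.48%), with a median of -0.020. TGM2, tissue transglutaminase, rose from 15.8 ± 0.654 to 46.3 ± 12.2 FPKM (log2 fold change 1.67, adjusted p = 0.00412). The other of the 2, POSTN, periostin, had 0.11, 0.12 and 0.22 FPKM in U87MG-control and 0.5, 0.6 and 0.29 FPKM in U87MG-LMO2. It was near 0 in the control libraries, so its test, as that of ITGB2, is not used, though it stays in the counts. STAT2 and STAT6 themselves had log2 fold changes of 0.02 and -0.04, as given above. Many of these targets also answer to other factors, so the counts are given for the lists and say nothing of which factor acted on them.

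**Figure D5:**
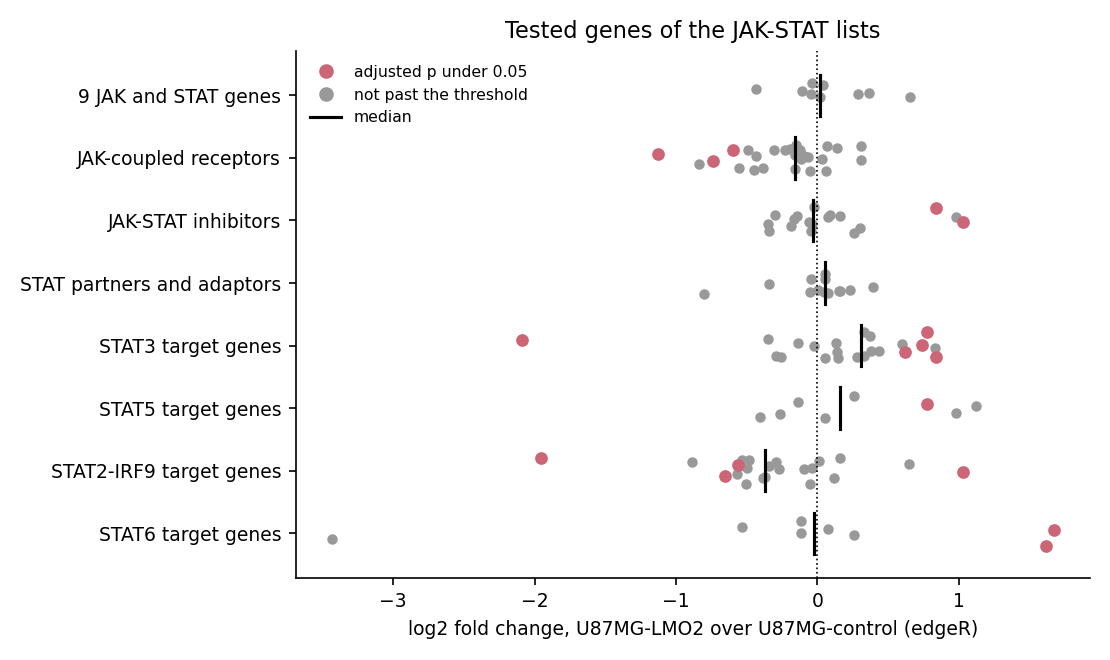
Log2 fold change of U87MG-LMO2 over U87MG-control for the 9 JAK and STAT genes (top line) and for the tested genes of the 7 lists, 1 point per gene, red where the edgeR adjusted p was under 0.05, with a black line at the median of each. None of the 9 genes is red, and 7.48% of all tested genes were called. Red in the lists are 3 of 27 receptors, 2 of 18 inhibitors, 0 of 13 partners and adaptors and 5 of 22 STAT3 target genes. Of the other targets, 1 of 8 for STAT5 and 2 of 8 for STAT6 are red. For STAT2 with IRF9, 1 higher and 3 lower of 23 are.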

How the data were processed

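Per the labels, U87MG cells were given control or LMO2 lentivirus for 24 h (3 libraries each), and a service company made and sequenced the libraries. For each library the authors deposited expected counts per gene (estimated reads, not normalized), FPKM and a gene length, and the submitters' processing notes name Bowtie2, BWA and GRCh38.p12. The counting program, the versions, the strandedness and the read length are not given in the sources used here. A table of the comparison holds the authors' mean FPKM of each group, used only to check the library tables, and their log2 ratio and probability of a difference, not used. In the table of U87MG-LMO2 replicate 3, 3 lines could not be read, and 131 genes whose mean did not match within 0.006 FPKM were left out, none of them among the 9.

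For the tests, each expected count was rounded to an integer. The main test was the quasi-likelihood test of edgeR 4.0.16 (low counts removed by filterByExpr, TMM scaling, glmQLFit and glmQLFTest, 2-sided) in R 4.3.3, with Benjamini-Hochberg adjustment over 16092 genes and calls at an adjusted p under 0.05. A missing line was taken as 0. Levels of neighbouring genes were compared on log2(FPKM + 0.01), per library. Alternatives used DESeq2 1.42.0, limma 3.58.1, other filters and scalings, a replicate block, and fits without each library. The sources used here name no molecular identifiers, so the counting errors given cover counting alone. Gene positions and sequences came from GENCODE v29 (GRCh38), 1 transcript a gene. The scripts were tested on simulated data. A result that needs a withheld item is not reported here. The 9 genes and the lists were chosen with earlier results of these data known. Named genes were the 9, LMO2, the called genes of each list (where more than 4 were called, the 2 highest and 2 lowest, here extended to all 5 after their values were seen), IRF9, IL6ST, IL2RG, SOCS1, SOCS3 and CISH, cell type markers, STAT4 (named outside this rule), and the 3 genes most like the one of the 9 with the widest range.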

Additional observations from a re-analysis of the deposited data

How the results depend on the processing

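No JAK or STAT gene was called in any of the 13 alternatives (7 with all libraries, 6 without 1 library), and of their 117 log2 fold changes 107 kept their sign. The summed counts of STAT5A and STAT5B gave 0.146, not called. STAT2 turned to -0.09 (limma on log2(FPKM + 0.1)), -0.087 (log2(FPKM + 1)), -0.015 (replicate block), -0.171 (without U87MG-LMO2 replicate 3, up to 0.194 without replicate 2) and -0.015 (without U87MG-control replicate 2). STAT5B turned to -0.027 and -0.026 in the limma fits and -0.026 without U87MG-control replicate 1 (up to 0.11 without replicate 3), and STAT6 to 0.109 without U87MG-LMO2 replicate 2 (down to -0.238 without replicate 3) and 0.018 without U87MG-control replicate 3. The limma fits moved the median of all genes to -0.054 and -0.038. Genes called higher numbered 387 with the replicate block and 102 to 1307 without 1 library, and genes called lower 691 with DESeq2, 189 with the block and 42 to 1102 without 1 library. Of the list genes, 9 were called by either limma fit, 7 with the block, and 2 to 27 without 1 library (2 without any 1 control library, 3 without U87MG-LMO2 replicate 1, 27 without replicate 3). The cause was not tested. Same-numbered libraries did not deviate together (correlations -0.117, -0.003 and -0.041), which does not settle whether they were made in pairs, and the labels do not say. JAK3, JAK2 and STAT5A had 49.9, 139.2 and 102.0 mean counts a library in U87MG-control, the lowest depth among the 9 genes.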
